A study of Mus musculus with 14 samples.

Results

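Limch1, Lmo2, Tsc22d1 and Mitf are 4 mouse genes around which SIM2 binding was described in embryonic stem (ES) cells. They were chosen from earlier results of this study. Each had a SIM2 site in all 3 clones and was placed among the genes with changed RNA. That change was between the Sim2-expressing clones and their parental line, not between cells before and after induction. The RNA itself was not analysed here, so the response of the genes is not examined. All peaks whose centres lay within 200 kb of the mm9 gene bodies in the GENCODE vM1 annotation were taken. They were 84 of the 24416 peaks in the 8 lists, and the 4 genes were compared with all 22367 protein-coding genes of the annotation on chromosomes 1 to 19, X and Y. The SIM2 peaks of the 4 genes are therefore given as a description with no test, since a SIM2 site in 3 clones was a condition of the choice.

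The cells were 3 Sim2-expressing clones of mouse ES cells, A6, B8 and C4, and their parental line EB3 (EBRTcH3), all cultured for 26 h in medium without tetracycline. In the clones this removal switches on a FLAG-tagged mouse Sim2 transgene under a modified human CMV promoter, and EB3 carries no such transgene, so a FLAG peak in EB3 marks DNA recovered without SIM2. FLAG ChIP was done in each of the 4 lines. NANOG, OCT4, MED1 and MED12 ChIP was done in A6 with 1 library each, so that the spread of these 4 factors between libraries is not known, and their binding without SIM2 was not analysed here. Each clone is 1 cell line with 1 FLAG ChIP library, and the clones served as the replicates of SIM2. The NANOG and OCT4 lists had 10 and 3 peaks within 200 kb of Nanog, and 7 and 1 near Pou5f1, the gene of OCT4.

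SIM2 is a basic helix-loop-helix PAS transcription factor that binds DNA together with ARNT. NANOG and OCT4 are transcription factors of the core network of pluripotency, and MED1 and MED12 are subunits of Mediator, the complex that links factors on enhancers to RNA polymerase II. The 4 genes have unlike products. LIMCH1 is a protein with a LIM and a calponin homology domain that acts on non-muscle myosin II and the actin cytoskeleton. LMO2 has LIM domains only and bridges transcription factors such as TAL1 and GATA proteins in early blood and endothelial cells. TSC22D1 is a leucine zipper protein, first described as a product of a gene stimulated by TGF-beta, and has long and short isoforms. MITF is the basic helix-loop-helix leucine zipper factor of the melanocyte lineage, and its gene has several promoters.

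A SIM2 site was defined as a group of SIM2 peaks with centres no more than 100 bp apart, found in 2 or more clones and absent from EB3. There were 7 such sites near the 4 genes, of 1229 in the genome, and 4 of the 7 were in all 3 clones. Limch1, Lmo2 and Mitf had 1 site each, and Tsc22d1 had 4. The 4 sites in 3 clones, 1 for each gene, and the only site of the 7 with a peak of all 4 other factors are shown as 200 bp of the mm9 genome around the site centre. Capitals mark the matches to the motifs searched, on either strand.
Limch1 upstream site, chr5:67114638-67114837, plus strand: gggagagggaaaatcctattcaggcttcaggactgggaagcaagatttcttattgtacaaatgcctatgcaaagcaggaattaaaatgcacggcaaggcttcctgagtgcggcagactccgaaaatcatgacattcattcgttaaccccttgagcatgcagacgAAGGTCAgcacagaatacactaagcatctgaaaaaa
Lmo2 downstream site, chr2:103833111-103833310, plus strand: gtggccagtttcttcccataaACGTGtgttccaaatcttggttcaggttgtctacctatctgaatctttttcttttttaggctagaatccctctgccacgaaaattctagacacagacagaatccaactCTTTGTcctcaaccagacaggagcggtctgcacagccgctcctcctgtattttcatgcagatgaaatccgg
Tsc22d1 intronic site, chr14:76905721-76905920, plus strand: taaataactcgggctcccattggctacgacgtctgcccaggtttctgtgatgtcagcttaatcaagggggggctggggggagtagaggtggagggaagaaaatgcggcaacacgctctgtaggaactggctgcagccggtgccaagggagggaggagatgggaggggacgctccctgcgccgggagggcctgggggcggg
Tsc22d1 downstream site, chr14:76915440-76915639, plus strand: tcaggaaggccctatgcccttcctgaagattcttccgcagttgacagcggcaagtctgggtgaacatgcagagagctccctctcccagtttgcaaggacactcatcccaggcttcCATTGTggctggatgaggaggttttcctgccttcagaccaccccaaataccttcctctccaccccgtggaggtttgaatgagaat
Mitf upstream site, chr6:97616872-97617071, plus strand: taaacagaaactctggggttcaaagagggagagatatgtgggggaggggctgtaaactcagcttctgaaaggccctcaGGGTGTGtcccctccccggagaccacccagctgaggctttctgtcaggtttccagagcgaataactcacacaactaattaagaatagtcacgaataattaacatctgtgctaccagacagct

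The motifs were the octamer ATGCAAAT bound by OCT4, the SOX element ACAAAG and its other form ACAATG, the core ACGTG of the SIM-ARNT element and its longer form TACGTG, the KLF element GGGTGTG with its other form GGGCGTG, and the ESRRB element AAGGTCA. The core ACGTG lies inside TACGTG, and no other motif of the list lies inside another. The Lmo2 site held the core ACGTG, 77 bp before the site centre, and an ACAAAG on the minus strand. The Limch1 site held an AAGGTCA 67 bp after its centre, and the Mitf site held a GGGTGTG. The intronic Tsc22d1 site held none of the 8 motifs. The downstream Tsc22d1 site held an ACAATG on the minus strand, 18 bp after its centre. Of the 2 sites not shown, the far upstream Tsc22d1 site held the octamer and the other an AAGGTCA on the minus strand. The core ACGTG was thus in 1 of the 7 sites and in 14.1% of all 1229 SIM2 sites, against 5.4% of the 14815 NANOG peaks in windows of the same length. TACGTG was in 0 of 7, in 3.5% of the SIM2 sites and in 1.2% of the NANOG peaks. The octamer was in 1 of 7 and in 7.4% of all SIM2 sites, and AAGGTCA in 2 of 7 and in 11.9%. The SOX elements were in 1 of 7 each, beside 33.5% (ACAAAG) and 19.9% (ACAATG) of all SIM2 sites, and GGGTGTG in 1 of 7 beside 9.9%. GGGCGTG was in 0 of 7 and in 2.4% of the SIM2 sites. In NANOG peaks the shares were 6.9% for the octamer, 11.3% for AAGGTCA, 33.6% for ACAAAG and 21.7% for ACAATG. For GGGTGTG and GGGCGTG they were 8.2% and 1.5%. The median G and C content was 43.0% in NANOG peaks and 47.5% in SIM2 sites, and its part in these shares was not tested.

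The intronic Tsc22d1 site differed from the other 6 in its base composition, with 63.0% G and C against 43.5% to 54.0%. The median over all SIM2 sites was 47.5%. Only 7 of the 1229 SIM2 sites, this one included, had a G and C content at least as high. All 7 were among the 205 sites with none of the 4 other factors. The median was 52.5% in those 205 sites and 46.5% in the 1024 sites with 1 or more factors.

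**Figure D1:**
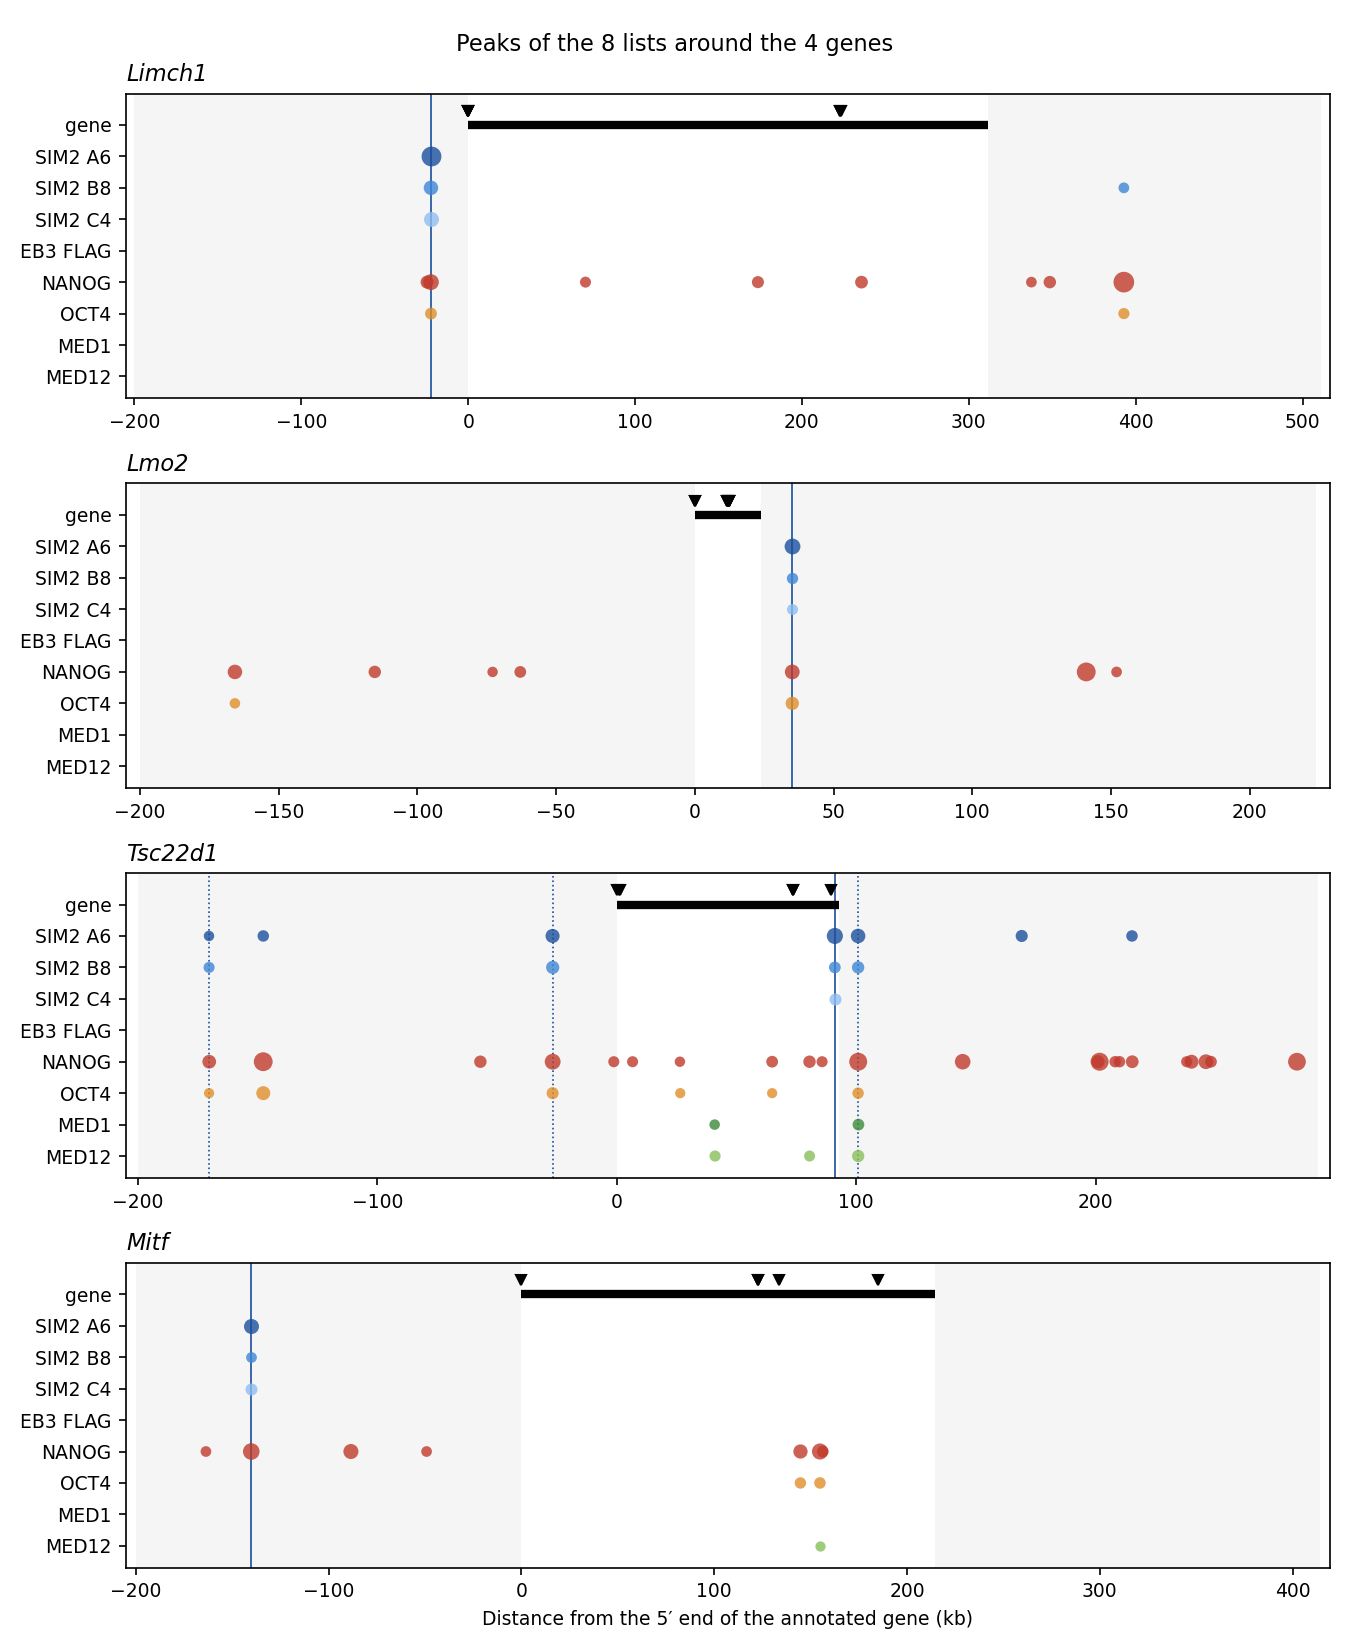
Peaks within 200 kb of each gene, by distance in kb from the 5′ end of the annotated gene, with 1 row per list. The size of a point grows with the peak's fold over the input, black bars are gene bodies, triangles are starts of coding transcripts, grey marks the flanks, and vertical lines mark SIM2 sites in 3 clones (solid) or 2 clones (dotted). Tsc22d1 holds 45 of the 84 peaks. No EB3 peak lies in any of the 4 windows, as for most genes. The EB3 list has only 81 peaks, and its 90th percentile over all protein-coding genes is 0.0 peaks per Mb.

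Limch1 lies on chromosome 5 from 67137074 to 67448398 on the plus strand and had 14 peaks in its window, 4 of them SIM2 peaks. Its site lay in intergenic DNA 22.3 kb upstream of the gene, at chr5:67114688-67114788. The normalized tag count of the peak, a signal that HOMER scales to library size, was 34.8 in A6, 14.3 in B8, and 8.8 in the C4 clone. The values differ in scale between lists and were compared by rank within a list. It ranked 5 of the 2387 A6 peaks, 6 of the 2137 B8 peaks and 27 of the 631 C4 peaks, so that the site was near the top of each list. The peak stood 20.69 times above the input in A6, 10.05 times in B8 and 10.86 times in C4. The HOMER score, a whole number in every list, was 83 in A6 with an exact Poisson 95% interval of 66.1 to 102.9, 41 in B8 (29.4 to 55.6) and 24 in C4 (15.4 to 35.7). These intervals cover counting error only. They treat the score as a count of tags, which is uncertain in B8 and C4, where the normalized tag count converted to tags was 0.502 and 0.5 times the score, against 0.97 in A6.

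The Limch1 site coincided with a NANOG peak with a tag count of 16.3, above which stood 7.7% of the NANOG list, and with an OCT4 peak of 5.4, above which stood 43.7% of the OCT4 list. The centres of the 5 peaks were within 21 bp of the site centre, that of NANOG at 2 bp. The nearest start of a coding transcript was that of Limch1 itself. The next was Uchl1, a neuronal ubiquitin hydrolase gene, at 47.4 kb, and then Apbb2 at 104.7 kb. A further SIM2 peak was listed in B8 alone, 81.6 kb downstream of the gene, with a tag count of 3.4 and a fold of 4.68, and 79.7% of the B8 list stood above it. The NANOG peak at this place had the highest fold over the input of the 44 NANOG peaks near the 4 genes, 22.59, and an OCT4 peak of 2.9 was listed there. The nearest Limch1 start was 169.8 kb away. The other 6 NANOG peaks near Limch1 had tag counts between 3.1 and 7.7 and coincided with no other peak, and 3 of them lay in Limch1 introns. No MED1 or MED12 peak was listed in the window.

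Lmo2 lies on chromosome 2 from 103798143 to 103822035 on the plus strand, with 12 peaks in its window and none in the gene body. Its site was 11.2 kb past the annotated 3′ end, at chr2:103833161-103833261, in an intron of the gene annotated as 4931422A03Rik. The tag count was 18.9 in A6, 6.8 in B8 and 5.1 in C4, with folds of 12.42, 5.41 and 4.98. Its rank was 222 for A6, 290 for B8 and 195 for C4, and 9.3%, 13.5% and 30.7% of the lists stood above it. The score was 45 in A6 (32.8 to 60.2), 22 in B8 (13.8 to 33.3) and 12 in C4 (6.2 to 21.0). In C4 a tag count of 5.1 was also the median of the list. The lists differ in length, and by rank alone the order of the clones is another than by share, so no order of the clones is read from these values.

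At the Lmo2 site the NANOG peak had a tag count of 10.1 and the OCT4 peak of 8.2, with 20.9% and 11.9% of their lists above them. Both centres lay to the same side of the site centre, at 65 bp and 64 bp, while the SIM2 centres of the 3 clones spanned 19 bp. The nearest start was 1 of those of Lmo2, 22.8 kb away, followed by Fbxo3, an F-box gene, at 34.7 kb, and 4931422A03Rik at 35.3 kb. Other NANOG peaks lay upstream of Lmo2 between 62.9 and 165.8 kb, and the farthest of these coincided with an OCT4 peak in an intron of Caprin1. The NANOG peak with the highest tag count of the window, 15.5, lay 117.2 kb downstream in an intron of Cd59a, with no SIM2 peak. As at Limch1, no MED1 or MED12 peak was listed.

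Tsc22d1 lies on chromosome 14 from 76814768 to 76907569 on the plus strand. Its window held 45 peaks, 53.6% of all peaks near the 4 genes. The coding transcripts start in 3 stretches of the gene, at 76814768 to 76815890, at 76888243 to 76888348, and at 76904317, where the short transcript Tsc22d1-001 begins. The 4 SIM2 sites lay 170.4 kb and 26.8 kb upstream of the gene, inside it, and 8.0 kb past its 3′ end. The gaps between them were 143.5, 117.9 and 9.7 kb.

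The intronic site, at chr14:76905771-76905871, was the only one of the 4 in all 3 clones. It lay 1.5 kb after the start of Tsc22d1-001, closer to a start of its own gene than any other of the 7 sites. The tag count was 19.7 in A6, 4.8 in B8 and 5.1 in C4, with folds of 12.98, 5.96 and 6.33. Above it stood 8.0% of the A6 list, 41.1% of the B8 list and 30.7% of the C4 list. Sites in 3 clones were high in the A6 list as a set. Their median A6 tag count was 18.2 with no other factor (34 sites) and 19.3 with 1 or more (312 sites). The median of the whole A6 list was 11.2. The standing of this site in A6 was thus usual for a site in 3 clones. The sites of Limch1, Lmo2 and Mitf were also chosen for 3 clones, so their A6 ranks are a description. The score was 47 in A6 (34.5 to 62.5), 14 in B8 (7.7 to 23.5) and 15 in C4 (8.4 to 24.7). None of the 4 other factors had a peak there, and the nearest NANOG centre was 5325 bp away.

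The downstream site, at chr14:76915490-76915590, had peaks of all 4 factors but none in C4. The tag count of SIM2 was 17.2 in A6 and 8.2 in B8, and 13.2% and 6.8% of the lists stood above it. NANOG had a tag count of 15.5, OCT4 6.0, MED1 5.7 and MED12 8.6, with folds of 16.59, 5.56, 5.93 and 6.77. The OCT4 centre lay 2 bp from the site centre, MED12 29 bp, NANOG 51 bp and MED1 136 bp. The lowest tag count in the C4 list was 2.2, and a site with less signal than the peak caller required is not in it, so the lack of a C4 peak does not show a lack of SIM2 there.

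The upstream site, at chr14:76787884-76787984, had SIM2 tag counts of 15.9 in A6 and 7.5 in B8, a NANOG peak of 14.7 and an OCT4 peak of 7.3. The far upstream site, at chr14:76644346-76644446, was the weakest of the 7 in A6, with a tag count of 10.7 and a fold of 4.26, and 53.0% of the A6 list stood above it. Its tag count was 4.8 in B8, and its OCT4 peak of 3.8, with a fold of 4.05, was at the lowest fold in the OCT4 list. The nearest start there was that of Rps2-ps6, at 7.2 kb, which the annotation lists as coding although its name is that of a ribosomal protein pseudogene. Nufip1 followed at 133.7 kb, nearer than Tsc22d1. At the other 3 sites Tsc22d1 had the nearest start, with Serp2 next at 50.7 kb and 41.0 kb from the intronic and downstream sites.

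A further 3 SIM2 peaks near Tsc22d1 were listed in A6 only, with tag counts of 9.4, 9.9 and 8.6. The first lay 147.7 kb upstream and coincided with NANOG at 17.0 and with the highest ranked OCT4 peak near any of the 4 genes, at rank 136 of 2532 with a tag count of 9.8. The second coincided with no other peak and the third with NANOG at 7.0, and Serp2 had the nearest start to both. The NANOG list held 22 peaks in the window, 5 of them inside the gene and 12 downstream, where the highest reached 20.9 at 108.9 kb. Inside the gene a MED1 and a MED12 peak overlapped 32.6 and 32.5 kb before the start of Tsc22d1-003 with no NANOG, OCT4 or SIM2 peak, and a MED12 peak of 6.7 coincided with NANOG at 6.2. OCT4 coincided with NANOG at 8.6 kb before the same start, with no SIM2.

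Mitf lies on chromosome 6 from 97757052 to 97971352 on the plus strand and had 13 peaks in its window. Its site was 140.1 kb upstream of the gene, at chr6:97616922-97617022. The tag count was 16.7 in A6, 4.8 in B8 and 5.9 in C4, with folds of 11.01, 4.68 and 6.33. Above it stood 14.3% of the A6 list, 41.1% of the B8 list and 19.8% of the C4 list. The score was 41 in A6 (29.4 to 55.6), 11 in B8 (5.5 to 19.7) and 14 in C4 (7.7 to 23.5). The score of 11 was the lowest in the B8 list. Ranked by score, 82.7% of the B8 list stood above the peak. Of the sites in all 3 clones it was the farthest from its gene, and the nearest start was that of Frmd4b, a FERM domain gene, at 49.4 kb.

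NANOG was the only other factor at the Mitf site, with a tag count of 14.7 and a rank of 1479 of 14815. The peaks of OCT4 and MED12 near Mitf lay inside the gene. NANOG at 7.7 and OCT4 at 6.7 coincided 10.9 kb after the start of Mitf-005, and NANOG at 10.1, OCT4 at 5.7 and MED12 at 5.3 coincided 21.0 kb after it. No SIM2 peak was listed inside Mitf in any clone, and no peak of any list downstream of it within 200 kb.

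**Figure D2:**
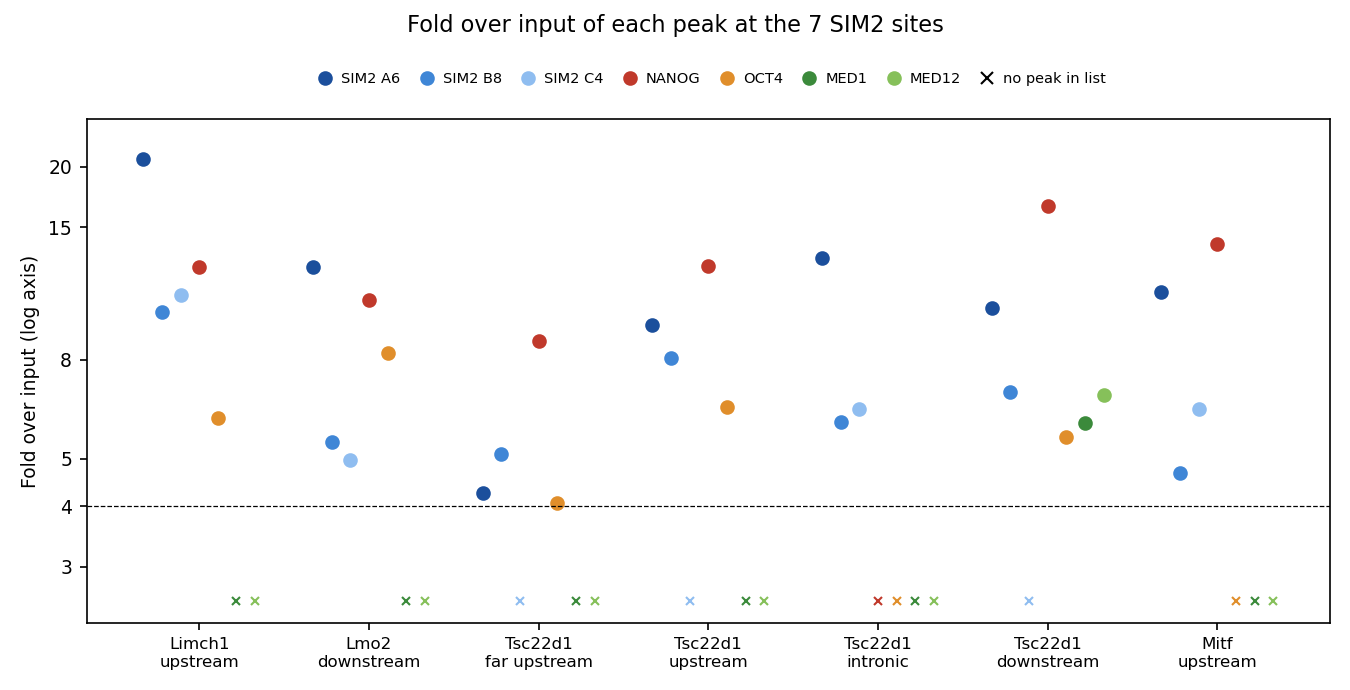
Fold over the input (log axis) of the peak in each list at each of the 7 SIM2 sites, with crosses at the foot for lists that have no peak there and a dashed line at 4 times the input. A6 was above B8 at 6 of the 7 sites, all but the far upstream Tsc22d1 site, and above C4 at the 4 sites where C4 has a peak. The median fold over the whole list was also higher in A6, at 7.15, than in B8 (5.53) and C4 (5.43). The Limch1 site had the highest fold of the sites in every clone.

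The SIM2 centres of the clones spanned between 6 and 58 bp at the 7 sites, and between 17 and 25 bp at the 4 sites in 3 clones. The definition of a site, with centres no more than 100 bp apart, limits this span. NANOG centres lay up to 77 bp from the site centre and OCT4 centres up to 64 bp. The rule that a factor peak lies within 100 bp of the site limits these distances too.

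**Figure D3:**
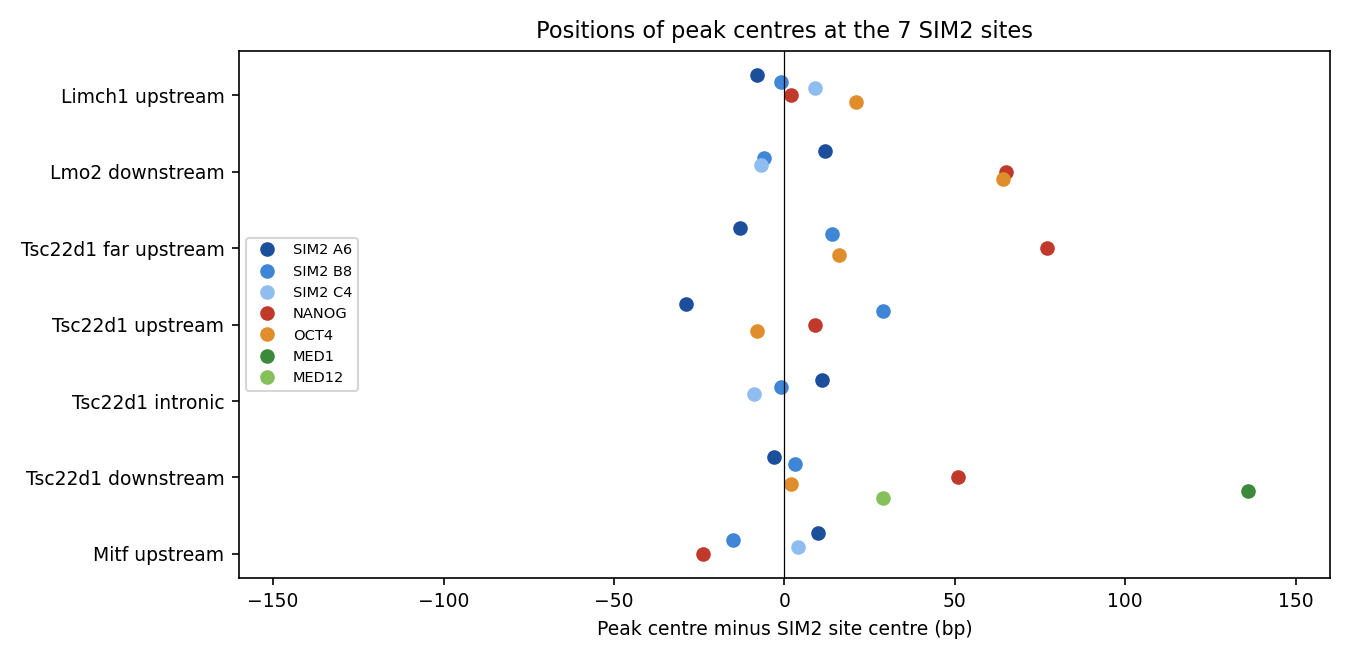
Distance in bp between each peak's centre and the centre of the SIM2 site it coincides with, for the 7 sites, on the plus strand of the genome. SIM2 centres lie within 29 bp of the site centre, and the MED1 peak at the downstream Tsc22d1 site lies farthest, at 136 bp.

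Over the 7 sites, NANOG coincided with 6, OCT4 with 5, and MED1 and MED12 with 1 each. Over all 1229 SIM2 sites the shares were 82.0% with NANOG, 46.2% with OCT4, 12.0% with MED1 and 28.4% with MED12. The exact binomial 95% intervals of the members' shares were 42.1% to 99.6% for NANOG, 29.0% to 96.3% for OCT4 and 0.4% to 57.9% for each Mediator subunit. They are wide, cover counting error only and treat the sites as separate, although 4 of the 7 lie near Tsc22d1, and no comparison with the shares of all sites is drawn from them. All 4 factors were present at 1 of the 7 sites and at 8.71% of all SIM2 sites. None was present at 1 of the 7, beside 16.7% of all sites and 9.83% of the 346 sites in 3 clones. That site, the intronic one of Tsc22d1, had an A6 tag count of 19.7, and the median over the 34 sites in 3 clones with no other factor was 18.2. Of the 205 sites with none of the 4 factors, 18.0% lay within 2 kb of the start of a coding transcript, as the intronic Tsc22d1 site did, against 6.6% of the 1024 others.

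The NANOG peaks at the 6 sites had tag counts between 8.5 and 16.3 with a median of 14.7. The other 38 NANOG peaks near the 4 genes had a median of 6.2, and 9 of them stood above 8.5, so that the ranges overlapped. Over the whole list, the 1008 NANOG peaks at SIM2 sites had a median of 12.4 and the rest of 6.2. The 84 peaks formed 47 separate regions when peaks up to 100 bp apart were joined. NANOG stood alone in 29 of them, 17 had peaks of at least 2 lists, and 3 had no NANOG peak, all near Tsc22d1.

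The number of peaks was set against the windows of all protein-coding genes. A SIM2 site in at least 2 clones lay within 200 kb of 22.5% of them, and a site in 3 clones within 200 kb of 7.51%, which the 4 genes had by choice. At least 4 sites lay near 0.183% of the genes, Tsc22d1 included. A NANOG peak lay near 85.5% of all genes and near all 4 members, and an OCT4 peak near 35.4% and near all 4. A MED1 peak lay near 13.5% of genes and near 1 member, Tsc22d1. A MED12 peak lay near 18.6% and near 2 members, Tsc22d1 and Mitf. The choice of the genes for a SIM2 site may bear on these counts too, and its part was not tested. Of all SIM2 sites, 82.0% had a NANOG peak, 46.2% OCT4, 12.0% MED1 and 28.4% MED12. Among the 1679 genes with a SIM2 site in 3 clones within 200 kb, 99.2% had a NANOG peak, 75.7% an OCT4 peak, 39.0% a MED1 peak and 52.5% a MED12 peak. The windows of the members were between 423.9 and 711.3 kb long, so densities per Mb were compared as well.

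The NANOG density was 11.25 peaks per Mb of window at Limch1, 16.51 at Lmo2, 44.64 at Tsc22d1 and 11.4 at Mitf, against a median of 4.98 over all genes. Lower densities were found for 80.0%, 92.5%, 100.0% (rounded) and 80.3% of all genes. For OCT4 the density was 12.18 per Mb at Tsc22d1 and between 2.81 and 4.72 at the other 3 genes, and 89.5% to 99.9% of all genes were lower. Among the 1679 genes with a SIM2 site in 3 clones, the median NANOG density was 11.65 per Mb, and 47.8% were lower than Limch1, 76.4% than Lmo2, 99.8% than Tsc22d1 and 48.5% than Mitf. For OCT4 these shares were 64.6%, 74.7%, 98.9% and 65.2%. Limch1 and Mitf thus stood near the middle of such genes in NANOG density and Tsc22d1 near the top. Neighbouring genes share windows and peaks, so genes are not independent of each other in these shares.

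**Figure D4:**
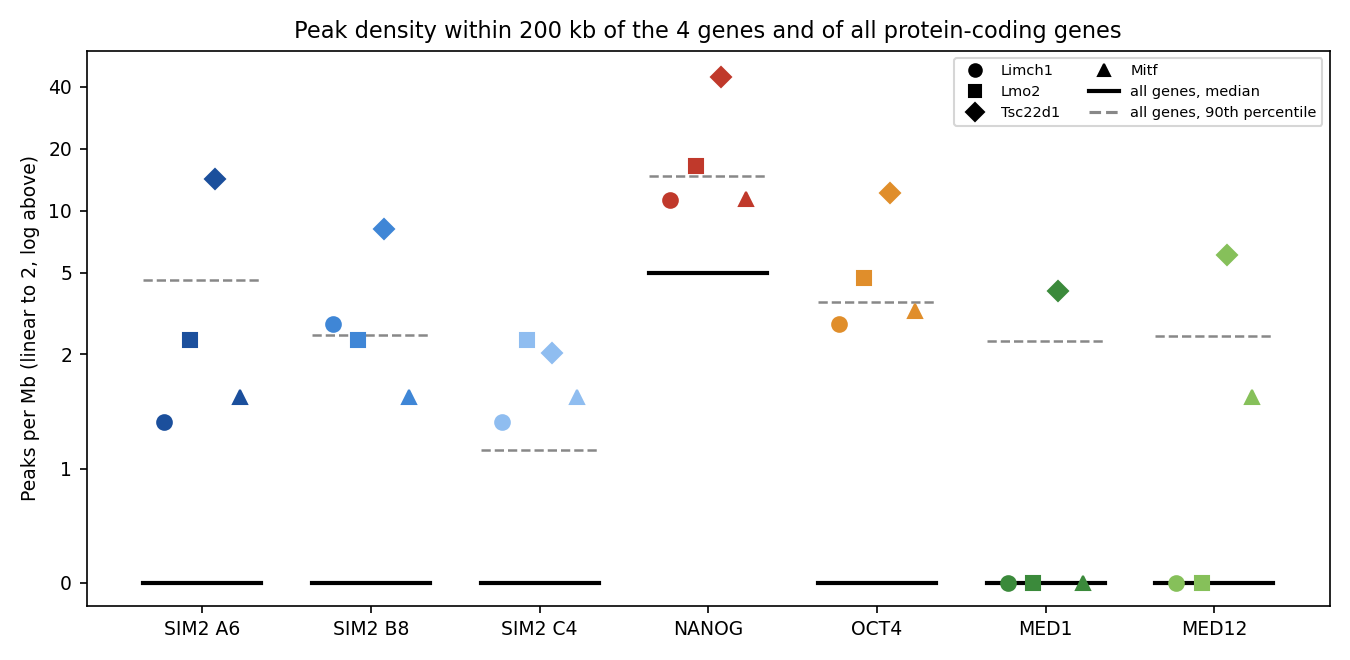
Peaks per Mb of window in each list for the 4 genes, with the median (black line) and 90th percentile (dashed line) over all protein-coding genes, on an axis that is linear to 2 and logarithmic above. Tsc22d1 lies above the 90th percentile in all 7 lists, Limch1 and Mitf lie below it for NANOG, and MED1 is at 0 for the other 3 genes.

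Tsc22d1 lies in a stretch of chromosome 14, from 70 to 110 Mb, that was rich in peaks in several lists. The stretch makes up 1.51% of the genome assembly and held 2.14% of the A6 peaks, 5.52% of B8, 12.36% of C4, 7.41% of EB3, 2.74% of NANOG, 2.92% of OCT4, 12.99% of MED1 and 5.98% of MED12. Its part in the counts near Tsc22d1 was not tested. Among the 130 protein-coding genes of the stretch, Tsc22d1 had the most NANOG peaks, 22 against a median of 6, and 98.5% of them had fewer per Mb. Another 2 genes of the stretch had at least 4 SIM2 sites, and 26 had at least as many MED1 peaks and 12 at least as many MED12 peaks as Tsc22d1. Per Mb, 83.8% of the genes of the stretch had a lower MED1 density and 93.1% a lower MED12 density, beside 96.9% and 98.6% of all protein-coding genes.

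The peak closest to the 200 kb limit from the inside was a NANOG peak 191.3 kb downstream of Tsc22d1, with a tag count of 14.7. The closest from the outside was a NANOG peak 206.7 kb upstream of Mitf, with a tag count of 3.1. Beyond the window of Limch1 the next peaks were at 317.6 kb upstream and 576.1 kb downstream.

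The genes with the most similar numbers of peaks were found by the Euclidean distance over the 8 lists of log2(peaks per Mb + 1), among 1662 genes with a SIM2 site in 3 clones near them and no window shared with a member. Among the 3 closest to Limch1 were Adamtsl1 and Ccbe1, at distances of 0.6 and 0.61. Closest to Lmo2 were Taf1, Marcks and Atg5, at 0.25, 0.26 and 0.35. Closest to Mitf were Eps8, Fryl and Vti1a, at 0.18, 0.3 and 0.33, and all 3 had 1 SIM2 peak in each clone, 2 OCT4 peaks, 1 MED12 peak and no MED1 peak, as Mitf had. Tsc22d1 had no such close match. The nearest were Vmn1r1 at 0.99, Gm10277 at 1.08 and Actr2 at 1.16, with 12, 11 and 16 NANOG peaks against 22.

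Genes related to the 4 members by family or function held SIM2 sites at about the rate of all genes. Of 34 such genes, 8 had a SIM2 site in at least 2 clones within 200 kb, or 23.5%, beside the 22.5% of all genes, and 2 had a site in 3 clones, or 5.9%, beside 7.51%. Among 10 LMO proteins and partners of LMO2, only Lyl1, a helix-loop-helix partner of LMO2, and Gata1 had a site, each in A6 and B8. None of the 3 other TSC22 genes, Tsc22d2, Tsc22d3 and Tsc22d4, had a site. Of 11 MiT family and melanocyte genes, Tfe3 and Tfeb, which are paralogs of Mitf, and Sox10, a neural crest factor, had sites. The Tfeb window held a site in 3 clones with NANOG, with an A6 tag count of up to 21.5 among its 2 sites. The site of Tfe3 was the same as that of Gata1, since the genes are neighbours on chromosome X. Of 10 LIM, calponin homology and non-muscle myosin II genes, Lima1, Micall1 and Myh9 had sites, and Micall1 had 1 site in 3 clones and 1 shared with Sox10, both with none of the 4 other factors. Tyr, Tyrp1, Dct, Pmel and Mlana, the pigment genes that MITF is known to activate, had no SIM2 site in the window.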

How the data were processed

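The 4 genes, the related gene lists and the motifs were chosen with earlier results of these data known. Peaks were called by the authors with HOMER at its default settings, library by library and relative to the matching input, from BWA alignments to mm9 without duplicate reads. Versions are not given in the sources used here. The deposited lists hold the normalized tag count (a signal scaled to library size), the findPeaks score, the fold over input (a ratio), its p-value and the focus ratio (a fraction) for each peak, as the authors' HOMER run wrote them. The lists hold 81 (EB3) to 14815 (NANOG) peaks. Steps between the deposited tag counts correspond to 12.9 M to 31.5 M (megatags) per library if HOMER scaled to 10 M.

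SIM2 peaks with centres within 100 bp were merged, those with an EB3 peak that close were dropped, and presence in 2 or more of the 3 clones was required. A factor peak within 100 bp of the 100 bp site was counted. Normalized tag counts were compared within a list, because they were about 0.97 to 0.997 times the score in A6 and EB3 and 0.5 to 0.504 times in the other lists, both in tags. Ties share the better rank. The genes named are the 4 members, those with the nearest starts, the 3 most similar to each, and related genes (4 matched by RefSeq synonyms, GRCm38.p6). Some genes under these rules are not reported here. Sequences were read from the NCBIM37 (mm9) genome. Site and overlap steps were tested on simulated data and against bedtools 2.31.1. Python 3.11.15, numpy 2.4.6, pandas 2.3.3, scipy 1.17.1 and matplotlib 3.10.9 were used. No test between conditions was made, since the genes were chosen on SIM2 peaks and each other factor has 1 library. Alternatives covered distances, peak threshold, gene extent, EB3 filter and clones. The ranking by score and leaving out the Tsc22d1 locus were chosen after seeing the data.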

Additional observations from a re-analysis of the deposited data

How the results depend on the processing

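Of 98 alternative counts, 63 stayed within 1.5 times the count reported. This share is no measure of robustness. Each gene was chosen for a site in all 3 clones, so leaving out 1 clone could not remove that site. Counts for all members also repeat those for single genes. With only SIM2 peaks of at least 8 times the input, the 7 sites fell to 2, with 0 near Lmo2 and 0 near Mitf. These were the site of Limch1 and the upstream site of Tsc22d1. The latter was lost when centres had to lie within 50 bp, since its A6 and B8 centres were 58 bp apart. That setting left 6 sites, 3 of them near Tsc22d1. At the limit of 8 times the input the intronic Tsc22d1 site was lost, with folds of 5.96 in B8 and 6.33 in C4. Only Limch1 thus kept its site in 3 clones. The limit of 8 times the input on the other lists left 18 of 44 NANOG peaks and 2 of 12 OCT4 peaks near the genes. It left 0 of 2 MED1 peaks and 0 of 4 MED12 peaks. At the sites it left all 6 NANOG peaks, 1 OCT4 peak, 0 MED1 and 0 MED12. With windows of 100 kb and 50 kb Mitf had 0 sites, and NANOG peaks numbered 26 and 20. Leaving out 1 clone and asking for both others gave 4 to 7 sites, 1 to 4 of them near Tsc22d1, with NANOG at 3 to 6, OCT4 at 2 to 5, MED1 at 0 to 1 and MED12 at 0 to 1. The lower value came without A6 and also without B8, because the 3 sites in 2 clones were all in A6 and B8. The sites in all 3 clones had NANOG at 3, OCT4 at 2 and MED1 and MED12 at 0. Leaving out the Tsc22d1 locus, also chosen after seeing the data, gave 3, 2, 0 and 0. No paired analysis was possible because no result comes from a test and the other factors have 1 library each.

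Each list holds only peaks past the caller's limit, so a missing peak is not a measured absence, and C4 has 631 peaks against 2387 in A6. Ranks depend on the measure. By score, 54.4% of the C4 list stood above the Lmo2 peak in place of 30.7%, and 31.4% above the Mitf peak in place of 19.8%. In B8 the share was 8.3% in place of 13.5% for Lmo2, 82.7% in place of 41.1% for Mitf, and 64.2% in place of 41.1% and 11.5% in place of 6.8% for the far upstream and downstream Tsc22d1 sites.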
